A study of Mus musculus with 2 samples.

Results

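The 37 genes described here encode the folding, translocation and quality control machinery of the endoplasmic reticulum (ER). They were chosen by symbol from a list of this machinery, which was drawn up with earlier results of these data known, and all 37 were found among the 31053 genes of the count tables. They were divided by role into 11 chaperones, 6 genes of oxidative folding, 3 stress sensors, 7 genes of ER-associated degradation and 10 genes of translocation and signal peptidase. Of the 3 called sensors, Atf6 and Ern1 encode sensors in the ER membrane and Xbp1 a transcription factor downstream of Ern1. A protein on the classical secretory route enters the ER through the Sec61 channel, loses its signal peptide and folds with the help of chaperones and of enzymes that form disulfide bonds. Chains that fail to fold are sent back to the cytosol for degradation, and sensors in the ER membrane raise the transcription of chaperone genes when unfolded chains accumulate. The β cell is a well known user of this system, because proinsulin enters the ER in large amounts and needs disulfide bonds to fold.

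The study asked what loss of Npc1, the lysosomal cholesterol transporter, does to β cells. Islets were taken from female mice aged 2 weeks on a C57BL/6J background, either Npc1-/- mice (a constitutive loss in all tissues, from matings of heterozygous parents) or wild type (WT) littermates. Each genotype was 1 droplet library of 3' tags, made from the pooled islets of 3 mice after a trypsin digestion, so that there is no replicate and no p-value can be given for any difference between genotypes. Every interval below is a 95% interval that covers counting error only. A difference between the genotypes is a difference between 2 libraries, and the effect of genotype cannot be told apart from that of preparation.

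The WT library held 114324626 unique molecular identifiers (UMIs, 1 for each captured transcript) in 8569 barcodes and the Npc1-/- library 127122035 UMIs in 7646 barcodes. Barcodes were kept above 1000 genes and below 50000 UMIs, provided that mitochondrial transcripts took less than 10% and haemoglobin no more than 0.1% of them, which left 4628 and 4269 cells. The libraries shared 12 barcode sequences, of which 3 were kept in both. A cell was placed in the β, α, δ or PP class by its leading hormone, if that hormone held at least 10% of its UMIs, and otherwise in a non-endocrine class by markers. The β class had 1833 WT and 1826 Npc1-/- cells, the α class 1048 and 857, the δ class 189 and 141, the PP class 411 and 442, the endothelial class 420 and 411, the stellate class (pericyte-like cells) 236 and 255, and the mesenchymal class 29 and 28. The markers of each class were highest in it. For the non-endocrine classes, and for the hormones in the δ and PP lists, this was fixed by the way cells were placed. The δ and PP classes were not pure. The 3 PP markers summed to 165043 CPM in the δ class of WT and 175432 CPM in that of Npc1-/- islets, against 616128 and 532066 CPM in the PP class. The 7 β markers, which include the hormone gene Iapp, summed to 34815 and 39307 CPM in the δ class, against 109930 and 102656 CPM in the β class. The 4 δ markers summed to 58449 and 63600 CPM in the PP class, against 272229 and 265029 CPM in the δ class, and Hhex was detected in 35.0% of the WT and 36.2% of the Npc1-/- cells of the PP class, against 3.24% and 4.67% in the α class.

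Of all UMIs of β cells, 57.8% in WT and 55.8% in Npc1-/- islets were hormone transcripts, and of those of α cells 34.9% and 34.7%. Levels are therefore given as UMIs of a gene summed over the cells of a class, per 1000000 of the UMIs that remain after 8 hormone genes are left out (CPM). Since 3' tags count 1 per molecule whatever the length of the transcript, length does not enter comparisons of these levels between genes. Other differences in how well each gene is captured and counted were not measured. Ratios of Npc1-/- over WT are log2 values relative to the median gene of the class, with 0.5 counts added, and a gene is called lower or higher where it lies at least 1.2-fold from that median gene. The median gene itself lay at 0.06 in the β class and 0.02 in the α class before this centring. Genes were tested against this limit in a class if they averaged 5 CPM and held 100 UMIs over both libraries.

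Npc1 itself had 319 UMIs (13.8 CPM) in β cells of WT islets and 143 UMIs (5.97 CPM) in those of Npc1-/- islets, and was lower in the Npc1-/- library in 7 of 7 classes. Which part of the gene the allele lacks is not given in the sources used here. Other features of the libraries moved with genotype. The summed level of 6 dissociation and heat shock genes (Fos, Jun, Egr1, Hspa1a, Hspa1b and Dnajb1) was 1588 CPM in WT and 503 CPM in Npc1-/- β cells, 2861 and 1404 CPM in α cells, and was lower in the Npc1-/- library in each of the 7 classes. Transcripts of 7 acinar genes, which belong to the exocrine pancreas, summed to 232 CPM in β cells of WT islets, to 50.01 CPM in those of Npc1-/- islets, and to 39.98 and 53.6 CPM in α cells. These values are set beside the results that they touch below.

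Expression of many of these genes is driven through the ER stress response element, a short promoter sequence bound by ATF6 and XBP1 together with NF-Y. The letters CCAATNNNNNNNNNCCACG (ERSE) and ATTGGNCCACG (ERSE-II) were searched on both strands from 250 bases before to 50 bases after each RefSeq start (GRCm38.p6). Such a window was given for 28 of the 37 genes. ERSE was found in 9 of these 28 (32.1%), against 37 of 27025 genes with a window (0.137%), and ERSE-II in 2 (7.14%), against 12 of 27025 (0.0444%). A match is a stretch of letters, not a site shown to be bound in these cells. Only exact matches were counted, so a gene without a match may still carry a variant of the element. The matches are printed here, with 5 bases on either side. Of the genes that carry them, Hspa5, Calr and Creld2 were lower in both the whole β and the whole α class. Canx was within the limit in both, and Syvn1 was lower in α cells alone. The others were lower in β cells alone, Derl3 being untested in α cells. Whether the motif bears on these differences was not tested. Capitals mark the letters of the motif, and each is read on the strand on which the motif runs forward:
Hspa5 (chr2:34772020-34772048, plus strand): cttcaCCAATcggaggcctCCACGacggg
Hsp90b1, far copy (chr10:86705633-86705661, minus strand): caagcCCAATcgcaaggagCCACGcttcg
Hsp90b1, near copy (chr10:86705528-86705556, plus strand): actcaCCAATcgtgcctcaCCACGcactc
Calr (chr8:84847070-84847098, plus strand): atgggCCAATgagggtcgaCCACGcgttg
Canx (chr11:50325795-50325823, minus strand): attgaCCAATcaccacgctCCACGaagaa
Dnajc3 (chr14:118937822-118937850, plus strand): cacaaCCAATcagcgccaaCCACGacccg
Creld2 (chr15:88819515-88819543, minus strand): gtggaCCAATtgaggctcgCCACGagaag
Pdia6 (chr12:17266486-17266514, plus strand): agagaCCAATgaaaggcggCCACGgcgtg
Syvn1 (chr19:6046527-6046555, plus strand): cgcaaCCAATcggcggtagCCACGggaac
Derl3 (chr10:75893237-75893265, minus strand): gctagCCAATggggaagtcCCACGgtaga
Herpud1, ERSE-II (chr8:94386372-94386392, plus strand): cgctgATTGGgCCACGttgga

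The 10 ERSE copies lay between 26 bases (Syvn1) and 212 bases (the far copy of Hsp90b1) before the start. The match of Dnajb11, the other gene with ERSE-II, lay after its start. The promoter of Hspa5 is the classical example, and its 250 bases before the start (chr2:34771840-34772089, plus strand) hold the copy above near their end:
Hspa5 promoter: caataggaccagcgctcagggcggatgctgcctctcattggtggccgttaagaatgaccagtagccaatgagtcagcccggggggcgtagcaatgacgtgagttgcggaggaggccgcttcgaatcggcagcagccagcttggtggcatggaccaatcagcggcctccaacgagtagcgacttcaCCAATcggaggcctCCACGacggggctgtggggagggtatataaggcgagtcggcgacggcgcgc

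In WT islets 32 of the 37 genes had their highest level in the β class, and in Npc1-/- islets 31 did. Together they took 1.94% of the UMIs left without hormones in WT β cells, 1.02% in α cells, 1.32% in δ cells and 0.549% in endothelial cells. The exceptions in both libraries were Hsp90b1, Ern1 and Herpud1, highest in the δ class, Ssr4, highest in the PP class of WT and the α class of Npc1-/- islets, and Ssr3, highest in the mesenchymal class. Ssr4 stood at 1497 CPM in α and 1495 CPM in PP cells of Npc1-/- islets, with intervals that overlap. Ssr3 stood at 212 and 190 CPM in the few mesenchymal cells, against 187 and 185 CPM in β cells. Ssr2 was highest in β cells of WT and in PP cells of Npc1-/- islets. The most abundant members in WT β cells were Hspa5 (BiP, the Hsp70 chaperone of the ER lumen) at 1819 CPM, the channel subunit Sec61b at 1554 CPM and the translocon-associated subunit Ssr4 at 1446 CPM. Derl3 at 27.2 CPM, Ern1 at 30.1 CPM and the ubiquitin ligase Syvn1 at 35.6 CPM were the least abundant.

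**Figure D1:**
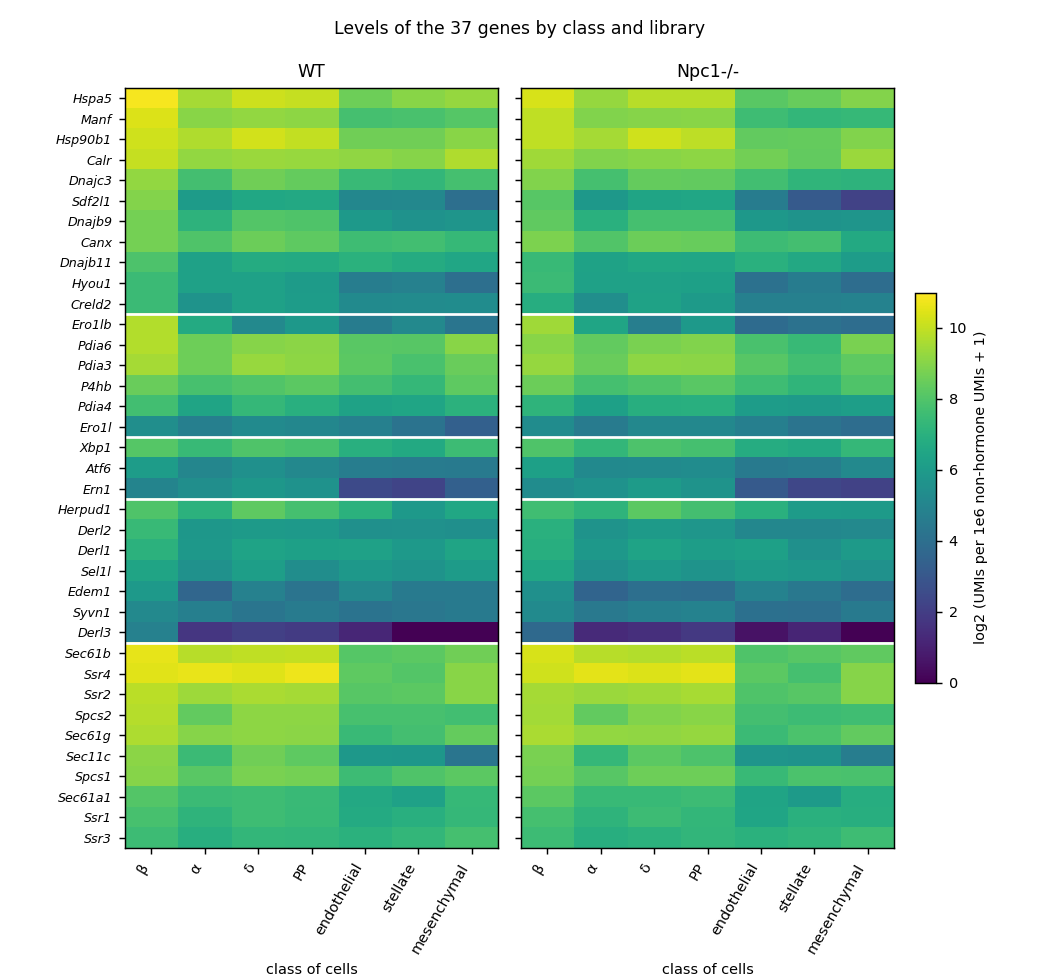
Level of each of the 37 genes (rows, grouped by role and separated by white lines) in each class of cells (columns) of the WT and the Npc1-/- library, as log2 of CPM without hormone genes plus 1. The β column is the brightest for most genes in both panels, and Ero1lb, Sdf2l1 and Derl3 fade most from β to the other columns.

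Classes were compared within each library, also relative to the median gene, which lay at 0.08 (WT) and 0.12 (Npc1-/-) on the log2 scale for β over α cells, at 0.25 and 0.31 for β over endothelial cells and at 0.17 and 0.21 for α over endothelial cells. Compared with α cells, 11 of the 37 genes were at least 2-fold higher in β cells than the median gene in both libraries and none was that much lower. Over all genes 5.42% were higher and 5.61% lower by that limit. The 11 were Ero1lb, Sdf2l1, Derl3, Edem1, Creld2, Dnajb9, Dnajc3, Hyou1, Derl2, Sec11c and Spcs2. By their levels alone, without the median gene, 16 were at least 2-fold higher and none lower, beside 6.32% and 4.74% of all genes. The 5 added were Hspa5 (2.48-fold in WT and 2.10-fold in Npc1-/- islets), Manf (2.58 and 2.05), Dnajb11 (3.15 and 2.15), Derl1 (2.34 and 2.04) and Atf6 (2.08 and 2.07). Ero1lb encodes the ER oxidase of secretory cells that passes disulfide bonds on to the isomerases. In WT islets it reached 838 CPM in β cells, against 104 CPM in α, 35.4 CPM in δ and 56.7 CPM in PP cells. In Npc1-/- islets it reached 698 CPM in β cells, against 88.4 CPM in α and 61.6 CPM in PP cells. Its widely expressed paralogue Ero1l stayed between 23.0 and 41.7 CPM in these same 4 classes, so that the paralogues stood at 20.1 to 1 in WT β cells and at 0.956 to 1 in WT δ cells. Sdf2l1, a partner of the BiP cochaperone Dnajb11, stood at 502 CPM in β and 65.3 CPM in α cells of WT, and at 282 and 57.2 CPM in those of Npc1-/- islets, 7.69-fold and 4.93-fold higher by level and 7.24-fold and 4.52-fold relative to the median gene. Derl3, a derlin of the degradation pathway, was 11.7-fold and 8.38-fold higher by level and 10.8-fold and 7.48-fold relative to the median gene, on only 28 and 17 UMIs in α cells. The part of RNA released from β cells in the low levels of these genes in α, δ and PP cells was not measured.

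Against endothelial cells, 19 of the 37 genes were at least 2-fold higher in β cells than the median gene in both libraries and none lower, beside 19.7% and 18.9% of all genes. By level, 28 were higher and none lower, beside 24% and 15.6% of all genes. Relative to the median gene the higher genes included 7 of the 11 chaperones and 7 of the 10 translocation genes, but of the 6 oxidative folding genes Ero1lb alone. By level they included 9 chaperones, 9 translocation genes and 4 oxidative folding genes, with Pdia6 at 2.88-fold in WT and 2.28-fold in Npc1-/- islets, Pdia4 at 2.52-fold and 2.11-fold and Pdia3 at 2.50-fold and 2.18-fold. The place of the isomerases thus depended on the reference. For α over endothelial cells, 9 of 36 were higher relative to the median gene and 1, Edem1, was lower, beside 18.6% and 18.3% of all genes. By level 11 were higher and 1 lower, beside 21.7% and 16.1%. On either scale 5 of them were translocation genes, with Ssr4 at 5.12-fold by level in WT and 4.95-fold in Npc1-/- islets. The chaperones among them were Manf and Hyou1, and by level also Hsp90b1 (2.12-fold and 2.26-fold) and Dnajb9 (2.22-fold and 2.21-fold). Part of a level in a non-endocrine class is free RNA released from β cells. Insulin, which these cells do not make, stood there at 0.874% to 2.02% of its β level. The same fraction of the β level of each member made up a median of 2.47% to 6.37% of what was counted in these classes. The share was far larger for genes with low levels there. For Ero1lb it was 45.8% to 60.6%, for Sdf2l1 up to 76.9% (in Npc1-/- mesenchymal cells), for Sec11c up to 34.0% and for Derl3 up to 30.1%, so that the levels of these genes outside endocrine cells are uncertain.

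**Figure D2:**
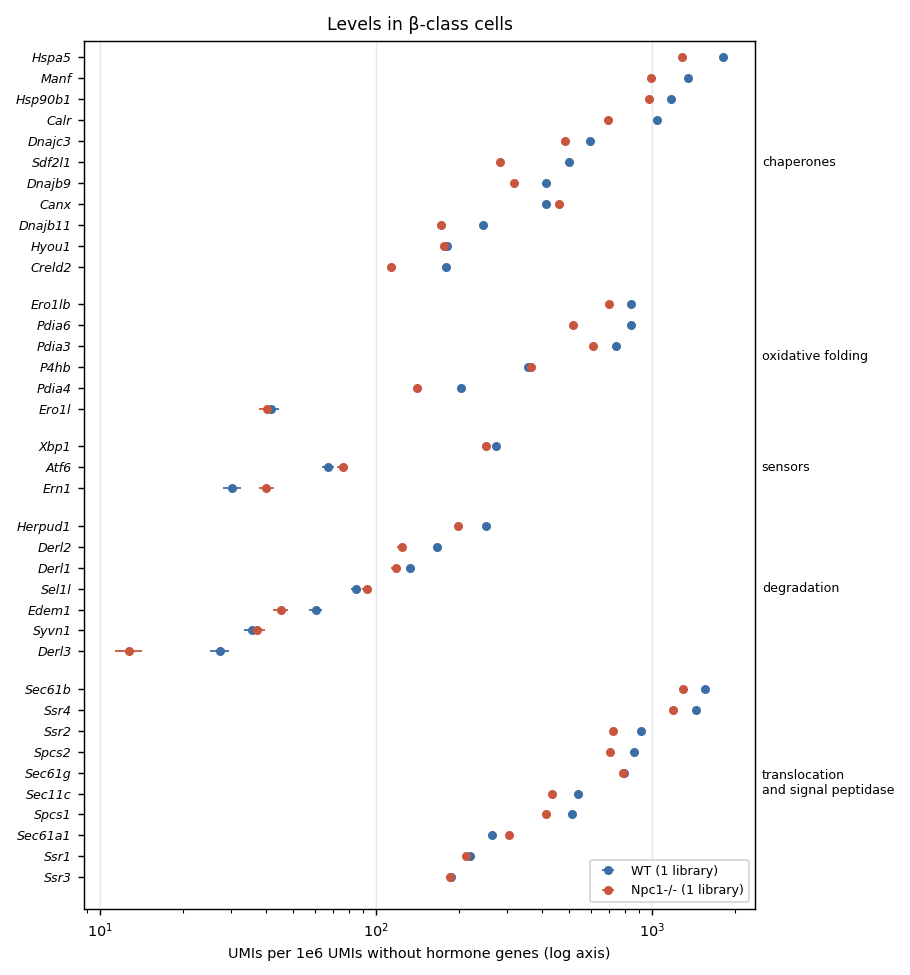
Level of each of the 37 genes in β-class cells, in CPM without hormone genes on a log axis, with 1 point for the WT library (blue) and 1 for the Npc1-/- library (red); bars are 95% Poisson intervals and are mostly narrower than the points. Most red points lie to the left of the blue ones, Canx, Sec61a1, Atf6, Ern1 and Sel1l being among those that do not.

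In β cells 23 of the 37 genes were lower in the Npc1-/- library and 1, Ern1, was higher. Over the 10425 genes tested, 11.2% were lower and 12.4% higher by the same limit. The median of the 37 genes was -0.34 on the log2 scale and their summed level fell from 19368 to 15600 CPM. Lower genes made up 9 of 11 chaperones (median -0.51), 4 of 6 oxidative folding genes (median -0.33), 4 of 7 degradation genes (median -0.39), 6 of 10 translocation genes (median -0.33) and 0 of 3 sensors (median 0.11). All but 5 of the 37 lay below the median gene.

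Among the chaperones, Hspa5 went from 1819 CPM in WT (42054 UMIs) to 1288 CPM in Npc1-/- β cells (30836 UMIs), a log2 ratio of -0.56 (-0.58 to -0.54). Manf, a BiP-binding factor that is itself secreted under stress, went from 1352 to 992 CPM (31248 and 23735 UMIs), a log2 ratio of -0.51 (-0.53 to -0.48). Its annotated span overlaps Rbm15b on the same strand, so that its counts are less certain. Hspa5 and Manf thus had the highest levels of the chaperones in both libraries and lay close together in their ratios. In Npc1-/- β cells, however, the interval of Manf (979 to 1004 CPM) overlapped that of Hsp90b1 (968 to 993 CPM). Calr, the soluble lectin chaperone of glycoproteins, went from 1044 to 692 CPM (24144 and 16554 UMIs, log2 ratio -0.65, -0.68 to -0.62). Canx, its membrane-bound relative, went from 413 to 460 CPM (9539 and 11019 UMIs) with a log2 ratio of 0.10 (0.06 to 0.14). The lectin chaperones therefore lay on opposite sides of the median gene. Hsp90b1, the Hsp90 of the ER, went from 1174 to 980 CPM (27137 and 23460 UMIs, log2 ratio -0.32, -0.34 to -0.29).

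The cochaperones of BiP did not move alike. The J-domain proteins Dnajb11 (244 to 172 CPM, log2 ratio -0.57, -0.63 to -0.51) and Dnajb9 (413 to 318 CPM, -0.44, -0.48 to -0.39) were lower by more than Dnajc3 (595 to 487 CPM, -0.35, -0.39 to -0.31). Hyou1, the nucleotide exchange factor of BiP, had 4186 and 4241 UMIs, or 181 and 177 CPM (log2 ratio -0.09, -0.15 to -0.03) and was within the limit. Sdf2l1 had the largest difference of the chaperones, from 502 to 282 CPM (11613 and 6741 UMIs, log2 ratio -0.89, -0.94 to -0.85). Creld2, an ER protein induced by stress, followed with 179 and 114 CPM (4140 and 2723 UMIs, log2 ratio -0.71, -0.78 to -0.64).

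In oxidative folding, the isomerase Pdia6 went from 838 to 521 CPM (19373 and 12459 UMIs, log2 ratio -0.75, -0.78 to -0.71). Pdia4 went from 204 to 141 CPM (4707 and 3373 UMIs, log2 ratio -0.59, -0.65 to -0.53) and Pdia3, which works with the lectin chaperones, from 742 to 614 CPM (17149 and 14699 UMIs, log2 ratio -0.33, -0.36 to -0.30). P4hb, the founding protein disulfide isomerase, was at 356 and 365 CPM (8227 and 8739 UMIs, log2 ratio -0.02, -0.07 to 0.02). The isomerases thus ranged from no difference beyond counting error in P4hb to the third most negative ratio of all members in Pdia6. Ero1lb was lower at -0.32 (-0.35 to -0.29; 19384 and 16695 UMIs), while Ero1l had 965 UMIs in each library and a log2 ratio of -0.11 (-0.24 to 0.02).

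The degradation genes held the member with the largest difference. Derl3 had 629 UMIs in WT and 304 in Npc1-/- β cells, or 27.2 and 12.7 CPM, a log2 ratio of -1.16 (-1.36 to -0.96). Derl2 was lower as well, from 167 to 124 CPM (3866 and 2974 UMIs, log2 ratio -0.49, -0.56 to -0.42), and Derl1 was within the limit at -0.23 (-0.30 to -0.15). The derlins thus ran from within the limit to the most negative ratio of all members. Edem1, which picks out misfolded glycoproteins, went from 60.5 to 45.2 CPM (1399 and 1081 UMIs, log2 ratio -0.48, -0.60 to -0.37) and Herpud1, a stress-induced scaffold, from 251 to 199 CPM (5796 and 4759 UMIs, log2 ratio -0.39, -0.45 to -0.34). The ubiquitin ligase Syvn1 (823 and 886 UMIs, log2 ratio -0.00, -0.14 to 0.14) and its partner Sel1l (1963 and 2225 UMIs, log2 ratio 0.07, -0.02 to 0.16) had intervals that include the median gene.

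In translocation, the differences were smaller and more even. The 6 lower genes had log2 ratios between -0.40 and -0.31. Ssr2 went from 917 to 724 CPM (21191 and 17318 UMIs, log2 ratio -0.40, -0.43 to -0.37) and Ssr4 from 1446 to 1194 CPM (33431 and 28570 UMIs, log2 ratio -0.34, -0.36 to -0.31), both of the complex that helps chains enter the channel. Sec61b, the small β subunit of the channel, went from 1554 to 1303 CPM (35938 and 31183 UMIs, log2 ratio -0.31, -0.34 to -0.29). The other three were subunits of signal peptidase, the enzyme that removes the signal peptide. Sec11c, a catalytic subunit, went from 542 to 436 CPM (12531 and 10446 UMIs, log2 ratio -0.37, -0.41 to -0.33). The accessory subunits Spcs1 (516 to 414 CPM, 11921 and 9907 UMIs, log2 ratio -0.38, -0.41 to -0.34) and Spcs2 (865 to 706 CPM, 20005 and 16894 UMIs, log2 ratio -0.35, -0.38 to -0.32) lay within counting error of Sec11c. The pore subunit Sec61a1 lay on the other side, from 264 to 303 CPM (6109 and 7260 UMIs, log2 ratio 0.14, 0.09 to 0.19), and Sec61g, Ssr1 and Ssr3 were between -0.11 and -0.07. Sec61b therefore stood at 5.88 UMIs to 1 of Sec61a1 in WT and 4.30 to 1 in Npc1-/- β cells, subunits that meet in 1 channel.

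None of the 3 sensors was lower by the limit. Ern1 (IRE1α, the kinase and nuclease that splices Xbp1) was higher, from 30.1 to 40.2 CPM (696 and 961 UMIs, log2 ratio 0.36, 0.21 to 0.50). Atf6, a membrane-bound transcription factor that is cut free under stress, went from 67.1 to 75.8 CPM (1552 and 1813 UMIs, log2 ratio 0.11, 0.02 to 0.21). Xbp1, the transcription factor made from the spliced mRNA, went from 272 to 250 CPM (6300 and 5982 UMIs, log2 ratio -0.18, -0.24 to -0.13) and was within the limit. It lay below the median gene in 7 of 7 classes. Counts of 3' tags do not tell spliced from unspliced Xbp1.

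**Figure D3:**
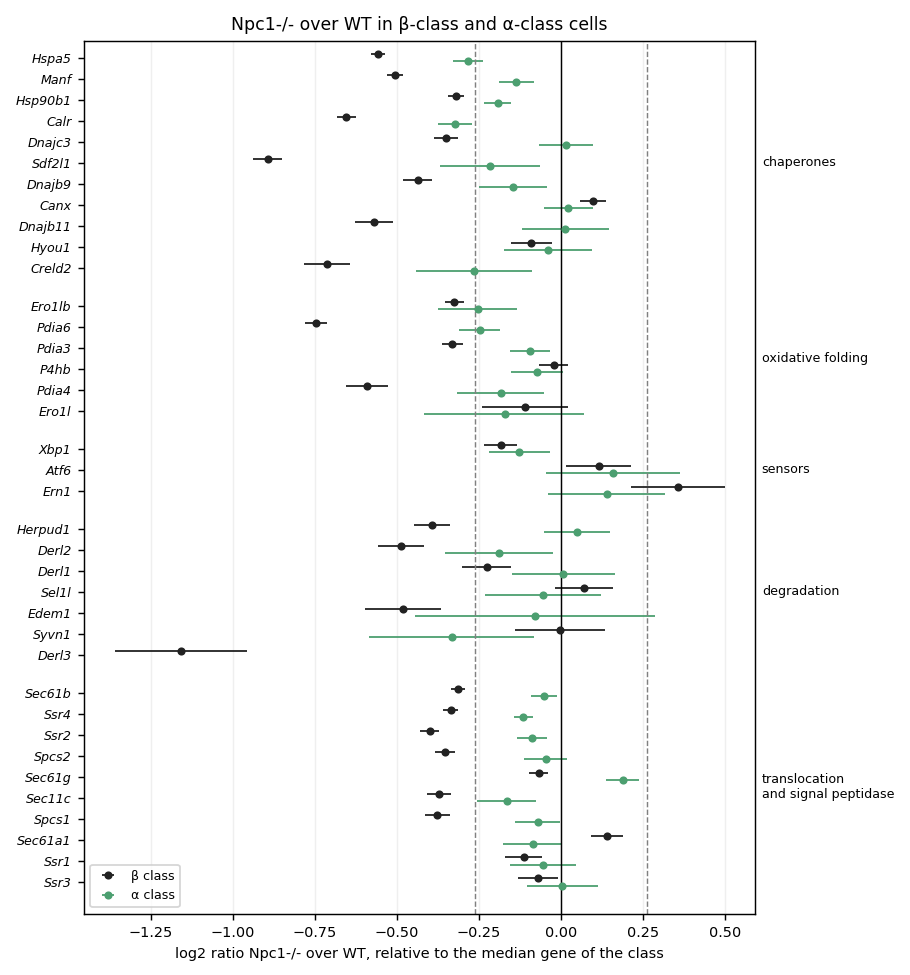
Log2 ratio of Npc1-/- over WT for each gene, relative to the median gene of the class (solid line), in β-class (black) and α-class (green) cells; bars are 95% intervals for counting error and dashed lines mark 1.2-fold. In β cells 23 genes lie left of the left dashed line and in α cells 4 do.

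Several of these values were checked against what else differed between the β cells of the 2 libraries. Without the cells richest in acinar RNA, 23 of the 23 genes remained past the limit. That left 1773 WT and 1703 Npc1-/- cells, most of those on which the 23 were called, so this count could hardly change. In β cells whose share of the 6 dissociation and heat shock genes was no higher than the median Npc1-/- cell (395 WT and 913 Npc1-/- cells), 21 remained, Hsp90b1 at -0.26 and Ero1lb at -0.24 falling short. In these cells Ern1 stood at 0.23, no longer past the limit, and Atf6 at -0.08, below the median gene. Both sets of β cells are parts of those on which the 23 were called, and the share of all genes past the limit is not given for them. The part of free RNA and of dissociation in the differences was not tested beyond these values.

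The Npc1-/- library had more β cells in which Ppy and Pyy held at least 1% of UMIs, with 821 of 1826 against 491 of 1833. Raised Tspan8, Ppy and Pyy marked immature β cells in the study, but the limit of 1% was set here. Of the 23 lower genes, 22 remained past the limit among cells below 1% and 21 among the others. Both sets are parts of the cells on which the 23 were called, so these counts are not independent of that call. For neither set is the share of all genes past the limit given. Hspa5 was at -0.57 (-0.60 to -0.54) in β cells below 1% and at -0.53 (-0.57 to -0.50) in the others, and Sdf2l1 at -0.87 and -0.82. Ero1lb was different. Its level was 945 CPM in WT and 876 CPM in Npc1-/- cells below 1%, and 549 and 478 CPM in the others, with log2 ratios of -0.16 (-0.20 to -0.13) and -0.25 (-0.31 to -0.19). Both missed the limit that the whole class passed, and in each library Ero1lb was lower in the cells rich in Ppy and Pyy, by -0.79 (-0.85 to -0.74) in WT and -0.89 (-0.93 to -0.84) in Npc1-/- cells on the log2 scale. Edem1 was at -0.51 below 1% and at -0.11 (-0.34 to 0.11) in the others, and the median of the degradation genes went from -0.43 to -0.16 with it. Ern1 was at 0.25 below 1%, short of the limit, and at 0.40 in the others.

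Per cell, the summed level of the 11 chaperones was lower in Npc1-/- than in WT β cells at each of 99 percentiles, and in α cells at 97 of 99. Each cell was thinned to 5000 UMIs before hormones were left out, and 26 WT and 22 Npc1-/- β cells with fewer UMIs were not used. Without thinning, the chaperones summed to 7916 and 5961 CPM over all β cells and to 3547 and 3172 CPM over all α cells. The median summed level of the chaperones was 7307 CPM in WT (10th to 90th percentile 3975 to 12776) and 5588 CPM in Npc1-/- β cells (2802 to 9682). In α cells, of which 35 and 16 were not used, the median was 3320 CPM (1758 to 5525) and 2919 CPM (1468 to 5044). A WT α cell at the 90th percentile thus lay below the median β cell of either library.

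**Figure D4:**
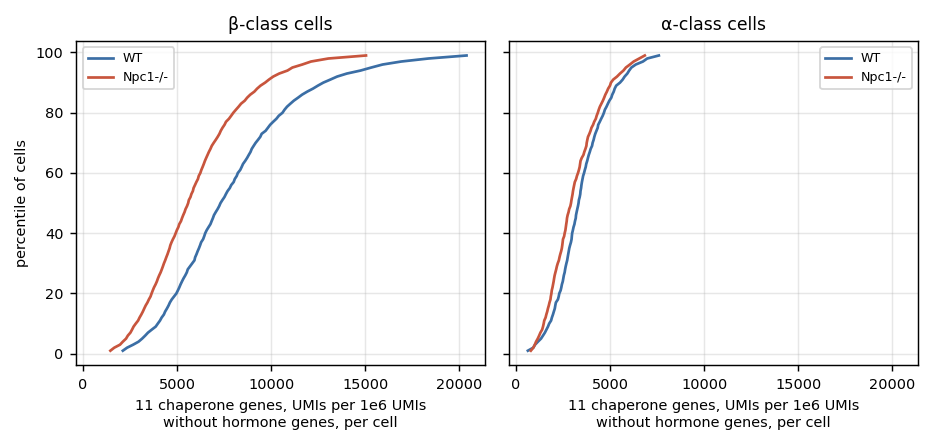
Percentile of cells (vertical axis) against the summed level of the 11 chaperone genes per cell, in CPM without hormone genes after thinning to 5000 UMIs, for β-class (left) and α-class (right) cells. The Npc1-/- curve (red) lies left of the WT curve (blue) in β cells at each percentile shown, with medians of 5588 and 7307 CPM, and in α cells at 97 of 99 percentiles, with medians of 2919 and 3320 CPM.

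Within a library, β cells with more Hspa5 also had more of other members. Across 1807 thinned WT β cells, Manf was the gene whose level correlated best with that of Hspa5 among the 1838 genes with a mean of at least 100 CPM (Pearson's r = 0.31 on log2 of CPM plus 100), followed by Pdia6 (0.24), Calr (0.24) and Sdf2l1 (0.22). Manf was again at the top across 1804 Npc1-/- β cells (0.25), with Pdia6 in the third place (0.19), and the median gene had an r of 0.002 in WT and 0.004 in Npc1-/- β cells. The chaperones had a median r of 0.15 in WT and 0.12 in Npc1-/- cells, the translocation genes 0.08 and 0.09. Canx was the exception among the chaperones, with -0.01 and 0.04. These cells share their library and their counts are sparse, so the values are a description. Over the 14 levels of 7 classes in 2 libraries, the profiles most like that of Hspa5 among 7365 genes were those of Ostc (Pearson's r = 0.98), Dad1 (0.97), Ift20 (0.97), Spcs1 (0.96) and Magt1 (0.96).

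In α cells the differences were fewer and smaller. Of the 36 genes tested, 4 were lower and none was higher, beside 7.36% and 7.21% of all genes, and the median was -0.09. The 4 were Hspa5, from 735 to 613 CPM (8837 and 6870 UMIs, log2 ratio -0.28, -0.33 to -0.24), Calr, from 590 to 480 CPM (7103 and 5376 UMIs, log2 ratio -0.32, -0.37 to -0.27), Creld2, from 49.5 to 41.8 CPM (595 and 469 UMIs, log2 ratio -0.26, -0.44 to -0.09), and Syvn1, from 25.8 to 20.8 CPM (310 and 233 UMIs, log2 ratio -0.33, -0.58 to -0.08). They made up 11.1% of the genes tested, not far from the 7.36% of all genes. All 4 are among the 8 genes tested here that carry an ERSE match, and whether the match bears on their ratios was not tested. Creld2 fell short of the limit with a looser cell filter and for the mean over cells. Derl3 had too few UMIs to be tested in α cells. In α cells low in dissociation and heat shock genes (210 WT and 429 Npc1-/- cells) 9 genes were lower and 1, Atf6 (0.28), was higher, beside 11.2% and 13.4% of all genes. The 9 were Sdf2l1 (-0.46), Pdia6 (-0.43), Creld2 (-0.43), Manf (-0.40), Calr (-0.35), Sec11c (-0.33), Edem1 (-0.30), Hspa5 (-0.28) and Hsp90b1 (-0.28), while Syvn1 was at -0.21. Of the 9, Sdf2l1 and Edem1 have a promoter window with neither motif, Manf and Sec11c have no window, and the others carry an ERSE match. The count in α cells thus depended on that selection more than the count in β cells did.

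The difference was more negative in β than in α cells for 29 of the 36 genes tested in both, with a median of -0.25 between the log2 ratios. For 23 of them the 95% interval of the difference lay below 0, and for 2, Syvn1 (0.33, 0.05 to 0.61) and Sec61a1 (0.23, 0.12 to 0.33), it lay above. The intervals cover counting error and not the spread between animals. These counts, here and in the selection of cells below, were not made over all genes. They therefore do not set the members apart from other genes. Sdf2l1 differed most, with -0.68 (-0.84 to -0.52), followed by Dnajb11 with -0.58 (-0.73 to -0.44) and Pdia6 with -0.50 (-0.57 to -0.43). The translocation genes that were lower in β cells were within the limit in the whole α class, between -0.17 (Sec11c) and -0.05 (Spcs2), and Sec61g was at 0.19 (0.14 to 0.24). The gap between the classes was smaller in cells low in dissociation and heat shock genes. There the median was -0.16, the ratio was more negative in β cells for 27 of 36 genes, and the interval lay below 0 for 19 and above for 2, P4hb (0.17, 0.01 to 0.34) and Sec61a1 (0.23, 0.04 to 0.42). In those cells the difference was -0.37 (-0.63 to -0.10) for Sdf2l1, -0.35 (-0.61 to -0.09) for Dnajb11, -0.29 (-0.41 to -0.17) for Pdia6 and -0.14 (-0.23 to -0.04) for Manf, which had -0.37 (-0.43 to -0.31) over the whole classes. Sec11c was at -0.02 (-0.20 to 0.15), past the limit in both classes. The largest differences were then those of Pdia4 (-0.52, -0.79 to -0.25) and Dnajb9 (-0.43, -0.64 to -0.22).

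**Figure D5:**
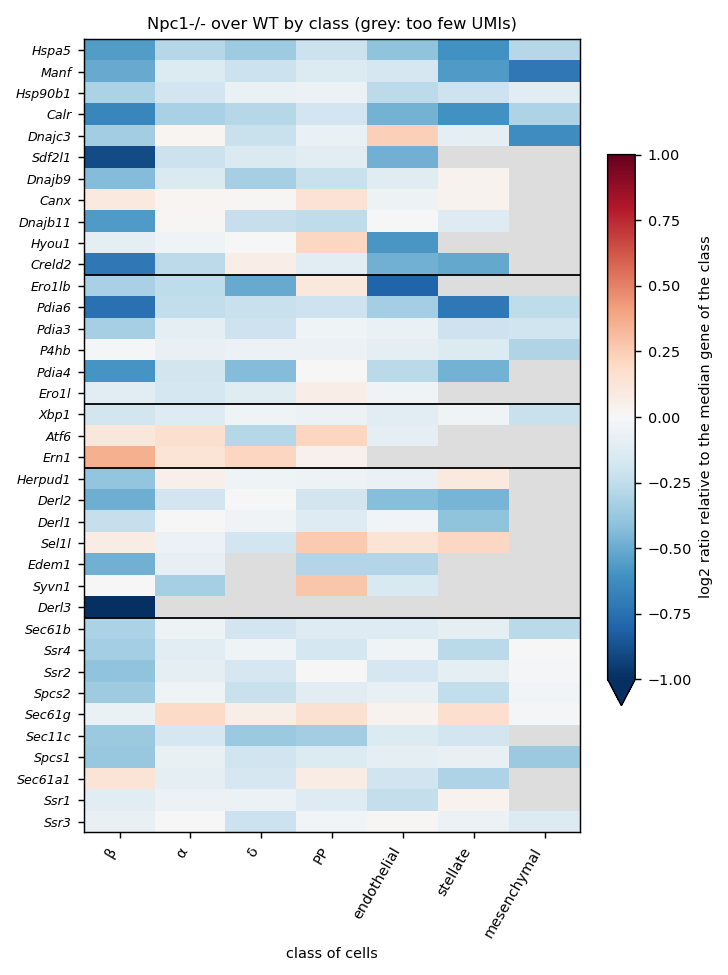
Log2 ratio of Npc1-/- over WT, relative to the median gene of the class, for each gene (rows, grouped by role) and class (columns); blue is lower in Npc1-/-, red higher, grey marks genes with too few UMIs, and the scale ends at -1. Hspa5 and Calr are blue in all 7 columns, and the rows of the 6 lower translocation genes are bluer in the β column than in the α column.

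In the other endocrine classes 7 of 34 genes were lower and none higher in δ cells, beside 12.7% and 11.7% of all genes, and in PP cells 2 of 36 were lower (Sec11c and Edem1) and 1, Syvn1, was higher, beside 10.6% and 11% of all genes. Among the 7 in δ cells were Hspa5 at -0.35 (-0.45 to -0.26), Calr at -0.29 (-0.42 to -0.16), Pdia4 at -0.43 (-0.70 to -0.17), Dnajb9 at -0.33 (-0.53 to -0.13) and Sec11c at -0.37 (-0.54 to -0.21). The other two, Ero1lb and Atf6, had intervals that reach past 0. Only 7 WT and 3 Npc1-/- δ cells held less than 5% of UMIs from another hormone family, and in these Hspa5 was at 0.21 and Calr at 0.51, so that the δ values rest on cells with mixed hormones. The PP class showed the least difference of the endocrine classes, with Hspa5 at -0.21 (-0.27 to -0.15), Calr at -0.19 (-0.26 to -0.12) and a median over its members of -0.06. Without the PP-class cells that carried Hhex or at least 1% of Sst UMIs, 261 WT and 271 Npc1-/- cells were left. In these 2 genes were lower, Sec11c (-0.39) and Dnajb9 (-0.31), and 5 were higher, Atf6 (0.48), Sel1l (0.42), Ero1lb (0.39), Hyou1 (0.33) and Ern1 (0.30), beside 12.2% and 13.5% of all genes. Hspa5 was at -0.26, Calr at -0.14, Edem1 at -0.01 and Syvn1 at 0.06, so that apart from Sec11c the genes past the limit were others than in the whole class.

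In non-endocrine cells lower genes were again found among the chaperones and isomerases. In endothelial cells 10 of 35 genes were lower and none higher, beside 10.8% and 8.85% of all genes. They included 5 of 11 chaperones, 3 of 6 oxidative folding genes and 0 of 10 translocation genes. Among 10 genes, a count of 0 is not set apart from the 10.8% of all genes. Of the 10 translocation genes 8 lay below the median gene, 3 of them with intervals below 0. The number of lower genes was between 8 and 11 over 14 settings, with the share of all genes given for the main setting alone. Pdia4 (-0.27) fell short of the limit with doublets removed and in cells low in dissociation genes, among other settings. Calr went from 570 to 409 CPM (2247 and 1875 UMIs, log2 ratio -0.48, -0.57 to -0.39) and Hspa5 from 384 to 290 CPM (1513 and 1332 UMIs, log2 ratio -0.40, -0.51 to -0.29). Free β RNA, judged from insulin, corresponded to 25.6 CPM of Hspa5 in WT and 11.3 CPM in Npc1-/- endothelial cells. For Sdf2l1, also among the lower genes, it corresponded to 21.4% of the level in WT and 10.5% in Npc1-/- endothelial cells. Ero1lb at -0.80 (-1.30 to -0.33) was the largest difference there, but 11.8 of its 23.3 CPM in WT and 6.10 of its 13.3 CPM in Npc1-/- endothelial cells were of that size. Dnajc3 went the other way, from 173 to 204 CPM (683 and 934 UMIs, log2 ratio 0.24, 0.09 to 0.38).

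In stellate cells 10 of 28 genes were lower and none higher, beside 14.2% and 13.1% of all genes. Pdia6 (-0.71, -0.93 to -0.50), Hspa5 (-0.61, -0.76 to -0.46), Calr (-0.61, -0.76 to -0.45) and Manf (-0.57, -0.80 to -0.33) led them, on 446, 851, 812 and 368 UMIs in WT. In the 29 and 28 mesenchymal cells only 16 genes could be tested, of which 7 were lower and none higher, beside 17.8% and 20.9% of all genes. Only Calr, Dnajc3 and Manf of these had intervals below 0. Dissociation and heat shock genes were lower in the Npc1-/- library in these classes too, from 3279 to 2424 CPM in endothelial and from 4000 to 2939 CPM in stellate cells.

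Over the classes, Hspa5 and Calr were lower in 6 of 7, missing the limit in PP cells alone. Pdia4 and Creld2 were lower in 4 of the 6 classes where they could be tested. The classes come from the same 2 libraries, and the share of all genes lower in as many classes is not given. Some of these calls are weak, since the intervals of Hspa5 in mesenchymal cells (-0.60 to 0.03) and of Creld2 in stellate cells (-1.10 to 0.06) include 0. Canx, Ero1l, Xbp1, Sel1l, Sec61g, Ssr1 and Ssr3 passed the limit in no class. Members with an ERSE match had a median of -0.56 in β cells (7 of 9 lower), -0.26 in α cells (4 of 8), -0.30 in endothelial cells (4 of 8) and -0.51 in stellate cells (4 of 7). Those with a window and neither motif had medians of -0.33 (10 of 17), -0.07 (0 of 17), -0.11 (4 of 16) and -0.08 (3 of 14). The 2 members with ERSE-II had medians of -0.48 (2 of 2 lower), 0.03 (0 of 2), -0.04 (0 of 2) and -0.02 (0 of 2). Of all genes 11.2% were lower in β, 7.36% in α, 10.8% in endothelial and 14.2% in stellate cells. Members without a window are left out. Most members with ERSE are chaperones, so motif was not separated from role. These counts are given as a description. Among the members without an exact match to either motif in the window, Sdf2l1 was at -0.89 and Pdia4 at -0.59 in β cells. Variants of the motifs were not searched.

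Of 58 other genes of the same pathways, 57 were in the tables and 55 could be tested in β cells. There 19 were lower and 1 higher, beside 11.2% and 12.4% of all genes, with a median of -0.18. In α cells 4 of 55 were lower and 1 higher, beside 7.36% and 7.21% of all genes, and in endothelial cells 5 of 54 were lower and 1 higher, beside 10.8% and 8.85%, so that in neither class was the share of lower genes above that of all genes. In β cells the lower genes included 6 of 15 other folding genes, led by Fkbp11 (203 to 126 CPM, log2 ratio -0.76, -0.82 to -0.69), a prolyl isomerase of secretory tissues, and by the disulfide isomerase Pdia5 (-0.67, -0.79 to -0.54). They included 5 of 11 genes of the oligosaccharyltransferase, which adds N-glycans, led by Ddost (659 to 467 CPM, log2 ratio -0.56, -0.59 to -0.52). In the PERK arm, whose kinase Eif2ak3 was at 0.23 and within the limit, 4 of 5 genes were lower (Atf4, Ddit3, Ppp1r15a and Asns). Ppp1r15a, an early response gene as well, was at -0.67 in β, -0.65 in α and -0.91 in endothelial cells. Of the other genes of targeting and translocation 3 of 14 were lower (Srp9, Srp72 and the signal peptidase subunit Sec11a) and 1, Srp54a, was higher. Of the other degradation genes 1 of 10, Edem2, was lower, no more than the share of all genes.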

How the data were processed

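For each library the deposited table holds raw counts of UMIs, genes by barcodes, which the authors made with Cell Ranger 3.1.0 on genome build mm10, per the submitters' processing notes, and limited to barcodes called as cells. Their filters in Seurat 4.0.3 had not been applied to these counts. The labels name the v3 reagent kit and the study's methods v2. The counts were used as deposited, with the study's filters (over 1000 genes, less than 50000 UMIs, less than 10% of UMIs mitochondrial and no more than 0.1% from haemoglobin) and without doublet removal, which was an alternative. Kept cells had a median of 18905 UMIs in WT and 21381 in Npc1-/-.

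Endocrine classes need a leading hormone with at least 10% of UMIs, and 80 WT and 62 Npc1-/- cells held between 8% and 12%. Non-endocrine classes need at least 3 detected markers and a lead of 0.2 in the share of markers detected over the next list, limits that were set after seeing the data. Members and lists were chosen with earlier results of these data known. UMIs were summed by class and library. Levels have exact Poisson intervals and ratios conditional binomial intervals, at 95%, and both cover counting error only, since amplified reads were collapsed to UMIs but each genotype has 1 library. No test across genotypes was made, and differences between classes were read in both libraries, relative to the median gene and by level. Genes with at least 20 CPM in β cells that passed 1.2-fold in β or α cells, and the highest members of each role, are given with values, with the levels outside β cells as a selection. On simulated counts, the ratio step was tested before use.

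Gene spans come from the GENCODE M21 annotation of GRCm38. Pdia3, Pdia6, Dnajb11, Herpud1, Syvn1, Derl2, Sec61a1, Spcs1 and Spcs2 overlap a gene on the other strand, and whether counting used strand is not given in the sources used here. Promoter windows are RefSeq's. Python 3.11.15 with numpy 2.4.6, scipy 1.17.1, pandas 2.3.3 and scanpy 1.11.5 (for Scrublet), and R 4.3.3 with edgeR 4.0.16 (for the TMM factor alone) were used. Alternatives changed the cell filter, doublets, class limits, hormone-rich, stressed or acinar RNA-rich cells, the denominator, the scaling and the limit on low values. Of these, removing δ-like PP cells, keeping only β cells rich in Ppy and Pyy, removing cells rich in acinar RNA, keeping cells low in dissociation genes and comparing classes by level were chosen after seeing the data.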

Additional observations from a re-analysis of the deposited data

Results flagged for a closer look

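Syvn1, the ubiquitin ligase of ER-associated degradation, lay on opposite sides of the median gene in classes of the same islets. Its log2 ratio of Npc1-/- over WT was -0.33 in α cells (310 and 233 UMIs) and 0.27 in PP cells (109 and 158 UMIs), while it was -0.00 in β cells. With 1 library per genotype the difference between the classes was not tested, and the interval in PP cells, -0.09 to 0.64, includes 0. Without the PP-class cells that carried Sst or Hhex it was 0.06.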

How the results depend on the processing

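In β cells the number of lower genes stayed between 21 and 23 over 16 settings, the main one included, and each of the 23 lay below the median gene in all of them. The share of all genes is given for the main setting alone, and the settings share many of their cells. The median of the chaperones (main -0.51) was -0.43 with the stricter cell filter, -0.47 in cells with at least 1% Ppy and Pyy and -0.47 in cells low in dissociation genes. The median of the degradation genes (main -0.39) was -0.16 and -0.29 in those last 2 sets of cells and -0.29 with a limit of 20 CPM. The median of the translocation genes (main -0.33) was -0.29 with the looser filter and for the mean over cells, and -0.27 with the stricter filter and in cells with at least 1% Ppy and Pyy. In α cells 9 genes in place of 4 were lower among cells low in dissociation genes, and there the difference between the log2 ratios of Hsp90b1 in β and α cells was 0.021 in place of -0.13. Apart from this value of Hsp90b1, reversed values of genes past the limit in the main setting came from the δ, PP and stellate classes. Genes within the limit changed side as well. In cells low in dissociation genes Atf6 was at -0.08 in place of 0.11 in β cells. There the difference between β and α cells was 0.07 in place of -0.06 for Ssr1. With cells of another hormone family removed, 7 WT and 3 Npc1-/- δ cells were left, and Hspa5 was at 0.21, Calr at 0.51, Pdia4 at 0.64, Dnajb9 at 1.27 and Ero1lb at 0.82. With a hormone limit of 20% (44 and 37 δ cells) Dnajb9 was at 0.0074 in δ and Edem1 at 0.15 in PP cells. Derl2 was at 0.10 in stellate cells with the stricter filter, and Atf6 at 0.11 in δ cells low in dissociation genes. The cause was not tested. No paired analysis was possible because each genotype has 1 library, and for the same reason no replicate could be left out. Depth limits Derl3 outside β cells and most genes in mesenchymal cells.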
